A study of Mus musculus with 2 samples.

Results

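The vascular endothelial growth factor (VEGF) genes followed here are the ligands Vegfa, Vegfb, Vegfc and Pgf, the receptor tyrosine kinases Kdr, Flt1 and Flt4, and the neuropilin co-receptors Nrp1 and Nrp2. Members were all probe sets annotated with exactly 1 symbol equal to one of these 9 names, and 22 such probe sets were found among 34945 probe sets with 1 symbol, which stand for 18193 genes. They were measured in cells sorted by fluorescence from embryos of Col2a1-Venus-Tg mice on a C57Bl/6 background. In this transgenic line chondrocytes, the cells that make cartilage, carry Venus, a modified green fluorescent protein, and by the name of the line Col2a1, the gene of the main cartilage collagen, directs it. RNA of 1 sample of Venus-positive and 1 sample of Venus-negative cells, both from transgenic embryos, was hybridised to 1 array each of the type Affymetrix Mouse Genome 430 2.0 Array. The labels state neither the stage nor the number of embryos, nor how the gates were set.

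VEGF ligands are secreted proteins that direct the growth of blood and lymph vessels. Kdr is the main signalling receptor for Vegfa on blood vessel endothelium, Flt1 binds Vegfa, Vegfb and Pgf and can act as a trap for them, and Flt4 receives Vegfc on lymphatic endothelium. Neuropilins bind some VEGF ligands as well as secreted semaphorins and are found on many cell types, neurons and mesenchyme included. Cartilage is free of vessels until its cells mature, and Vegfa made by mature chondrocytes is known for drawing vessels into the growth plate.

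The signal of each probe set is in arbitrary MAS5 units, and each ratio is between the 2 arrays for the same probe set. Summed signals of a marker list add up different probe sets, so they are set side by side only between the arrays and are weighted toward the brightest. With 1 array per fraction there is no replicate error and no test across samples, so each difference below describes these 2 arrays. A floor of 22.5, the median of all non-control signals, stands in for detection calls. A probe set that reached it on at least 1 array is called measured, lower signals were set to the floor before the Venus-positive signal was divided by the Venus-negative one and log2 taken, and a fold against such a signal is a lower bound written "at least". The Venus-positive array was dimmer, with a median log2 ratio of -0.33 over 11789 measured genes, so "relative" values with this median subtracted are given beside the deposited scale. The deposited scale put 329 genes past the 2-fold size upward and 1368 downward, and the relative scale 597 and 760. Chondrocyte markers checked the sort: all 15 listed were at least 2-fold higher in Venus-positive cells on both scales, among them Sox9 (1601 against 338). Col2a1 (8443 against 606), whose regulatory DNA by the name of the line drives the reporter, is no independent finding.

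Vegfa was the member with a higher signal in Venus-positive cells, and the 8 other genes were lower there, whichever scaling was used, from 7.49-fold for Vegfc to 1.35-fold for Nrp2 on the deposited scale. Thus 1 of the 9 lay above 0, where 22.7% of all measured genes lay. Of the 9 genes, 6 (Vegfc, Nrp1, Kdr, Pgf, Flt4 and Flt1) were at least 2-fold lower, against 11.6% of all measured genes, and none of the 9 was at least 2-fold higher, against 2.79%. On the relative scale 4 of the 9, Vegfc, Nrp1, Kdr and Pgf, passed that size downward, against 6.45% of genes, and none upward, against 5.06%. Vegfc alone passed 4-fold, against 2.24% of genes on the deposited scale. The median log2 ratio of the 9 genes was -1.30 on the deposited scale, beside -0.33 for all measured genes. In sorted bulk samples, fewer cells of a type and less RNA per cell cannot be told apart.

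By probe set, 19 of the 22 were measured, and the other 3, of Flt1 and Flt4, were below the floor on both arrays. Of the 19, 4, of Vegfc, Pgf, Flt1 and Nrp2, were measured through the Venus-negative array alone and so could only be lower. At least 2-fold lower were 10 of the 19, against 10.2% of all 21102 measured probe sets with 1 symbol, and 1 was at least 2-fold higher, against 2.44%. On the relative scale these counts were 8, against 5.32%, and 1, against 4.63%. The 3 probe sets at least 4-fold lower all belong to Vegfc, against 1.67% of measured probe sets at that size. Probe sets of 1 gene share the same RNA and are not independent of each other.

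**Figure D1:**
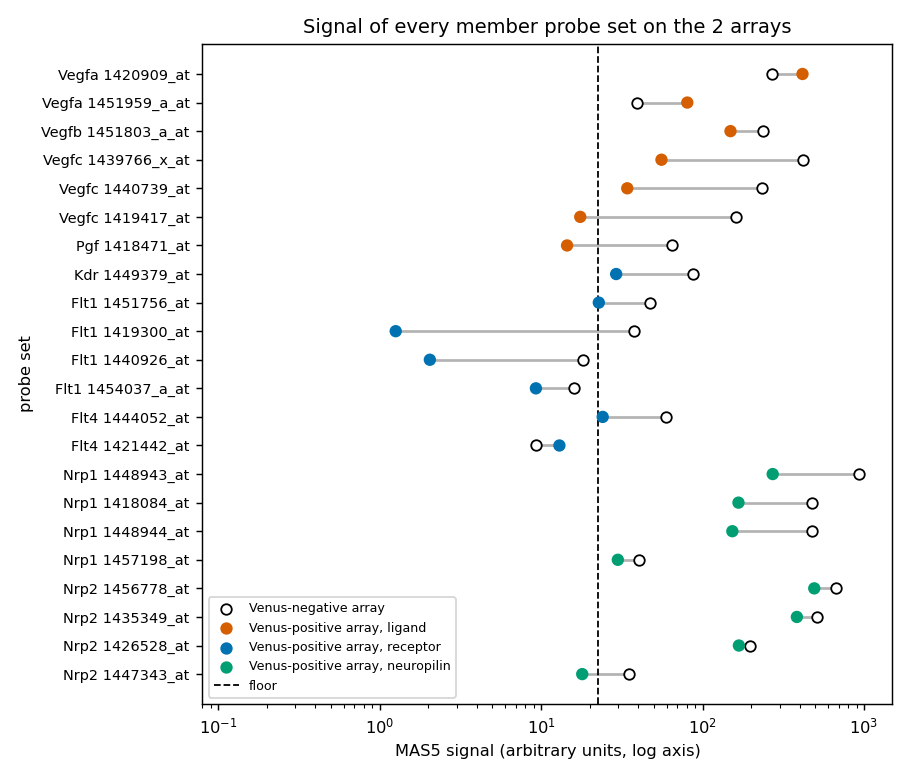
MAS5 signal (log axis) of the 22 member probe sets, 1 row each, with open circles for the Venus-negative and filled circles for the Venus-positive array and a dashed line at the floor of 22.5. Both Vegfa probe sets have the Venus-positive signal to the right, the 3 Vegfc probe sets have it far to the left, and most receptor signals lie near or below the floor.

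The ligands are described first. Vegfa (NCBI gene ID 22339), the central ligand of blood vessel growth, had a signal of 268 on the Venus-negative and 416 on the Venus-positive array on its probe set 1420909_at. Its second probe set, 1451959_a_at, gave 39.1 and 80.5. Both probe sets were thus higher in Venus-positive cells, by 1.55-fold and 2.06-fold, or 0.96 and 1.37 on the relative log2 scale. The first stands for the gene because its mean log2 signal is the higher, so Vegfa as a gene did not reach the 2-fold size on either scale. Of all measured genes, 5.45% had a higher ratio than Vegfa.

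Vegfc (gene ID 22341), the main ligand of lymphatic vessel growth, went the other way. Its probe set 1439766_x_at gave 418 on the Venus-negative and 55.7 on the Venus-positive array, 7.49-fold lower. Probe set 1440739_at gave 233 and 34.2, 6.82-fold lower, and 1419417_at gave 160.4 and 17.5, at least 7.13-fold lower. The 3 log2 ratios, that of 1419417_at as a bound, lay between -2.91 and -2.77. Their standard deviation of 0.07 between probe sets is probe disagreement within this pair of arrays and not an error between samples. Part of this closeness comes from the floor. When 5.19 was used in place of 22.5, 1419417_at was at -3.19, outside that range. The values of 1439766_x_at and 1440739_at did not move. The pooled standard deviation between probe sets of a gene, over the 5445 genes with several measured, was 0.34. Only 0.594% of measured genes had a lower ratio than Vegfc. The suffix _x_at marks probe sets that can match several transcripts, and without that one Vegfc was represented by 1440739_at.

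Vegfb (gene ID 22340), a ligand of Flt1 known for its roles in heart and other metabolically active tissue, had 238 on the Venus-negative and 149 on the Venus-positive array. That is 1.60-fold lower on the deposited scale and 1.27-fold on the relative one. Pgf (gene ID 18654), placental growth factor, another ligand of Flt1, had 64.7 and 14.5. Its Venus-positive signal was below the floor, so Pgf was at least 2.88-fold lower. Vegfb and Pgf rest on 1 probe set each. The remaining ligand of the family, Vegfd, is no member and was lower on all of its 3 probe sets, with 101 against 26.8 on the one that stands for the gene, 3.76-fold. Among the ligands, then, Vegfa stood on one side of 0 and Vegfb, Vegfc, Pgf and Vegfd on the other.

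To show what surrounds the start of the ligand genes that differed most in ratio, the 250 bases before an annotated start of Vegfa and of Vegfc are given, 5′ to 3′ on the strand of the gene, from RefSeq promoter windows of build GRCm38.p6. Capitals mark GGGCGG or its reverse complement CCGCCC, the GC box bound by Sp factors. The Vegfa window is chr17:46032378-46032627 on the minus strand and the Vegfc window chr8:54077282-54077531 on the plus strand.
Vegfa: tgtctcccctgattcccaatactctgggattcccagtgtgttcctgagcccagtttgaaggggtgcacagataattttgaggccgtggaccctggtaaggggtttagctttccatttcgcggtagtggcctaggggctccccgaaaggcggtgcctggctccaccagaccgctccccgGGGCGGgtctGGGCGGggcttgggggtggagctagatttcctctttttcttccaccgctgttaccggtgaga
Vegfc: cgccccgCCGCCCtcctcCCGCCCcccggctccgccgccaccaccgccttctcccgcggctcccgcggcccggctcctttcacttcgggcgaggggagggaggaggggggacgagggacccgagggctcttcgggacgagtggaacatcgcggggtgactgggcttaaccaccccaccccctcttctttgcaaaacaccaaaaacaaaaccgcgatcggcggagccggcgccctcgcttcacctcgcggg

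Each of these windows holds 2 GC boxes, which in Vegfa lie 72 and 62 bases before the start and in Vegfc 243 and 232 bases before it. All 9 members matched the promoter table, with 11 windows because Vegfa and Pgf have 2 annotated starts each. A GC box was present in 10 of the 11 windows, against 32.7% of all 32851 windows. The member windows were rich in G and C, from 59.2% to 76.4%, against a median of 52.4% over all windows. The core ACGTG of the hypoxia response element was present in 1 of the 11, against 16.6% of windows. That window belongs to the second annotated start of Vegfa, which lies downstream of the first, inside the gene. The Vegfa window printed above holds no such core. The SOX core ACAAT was in none of the 11, against 27.7%. Matches on both strands were counted, they may overlap those of another motif at their ends, and they describe letters in these windows only.

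The 3 receptor genes were lower in Venus-positive cells, at signals close to the floor. Kdr (gene ID 16542) had 87.9 on the Venus-negative and 29.2 on the Venus-positive array, 3.01-fold lower on its 1 probe set and 2.39-fold on the relative scale. Flt4 (gene ID 14257) had 59.3 and 24.1, 2.46-fold lower on probe set 1444052_at. Its second probe set gave 9.32 and 13.0, below the floor on both arrays, and carries no fold.

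Flt1 (gene ID 14254) has 4 probe sets. The one that stands for the gene, 1451756_at, gave 47.1 on the Venus-negative and 22.8 on the Venus-positive array, 2.07-fold lower. Probe set 1419300_at gave 37.8 and 1.26, at least 1.68-fold lower because the second value lies below the floor. The other two were below the floor on both arrays, with Venus-positive signals of 2.05 and 9.30 and Venus-negative signals of at most 18.2. On the relative scale Kdr alone among the receptors was past the 2-fold size, with Flt4 at -0.97 and Flt1 at -0.72. Of measured genes, 4.20% had a lower ratio than Kdr, 6.68% than Flt4 and 10.3% than Flt1.

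Most but not all other vessel genes were lower too. Of 24 listed endothelial markers 21 were measured, 15 were at least 2-fold lower, against 11.6% of all measured genes, and none higher, against 2.79%, and the median log2 ratio was -1.96. Relative to the median gene 14 passed that size, against 6.45%. Of the 21 markers 10 were measured through the Venus-negative array alone and so could only be lower. These calls depend on the floor: when it was raised to 114, the 75th percentile of signals, 8 markers were measured, none was 2-fold lower and the median was -0.39. The summed signal of the 21 was 2296 on the Venus-negative and 845 on the Venus-positive array. Lmo2 (222 against 30.4, 7.29-fold), Cd34 (215 against 32.0, 6.70-fold) and Tal1 (146 against 22.9, 6.40-fold), which blood progenitors express too, and the endothelial surface gene Plvap (153 against 22.3, at least 6.81-fold) were the lowest. No marker was listed at 0, but the adhesion gene Pecam1 (1.70 against 58.9), the angiopoietin receptor gene Tek (12.4 against 103) and 8 others were below the floor on the Venus-positive array alone. Erg, an ETS factor of endothelium that developing cartilage is also known to express, was at 375 against 269, and without it the sums were 2028 and 470.0. Clec14a, a surface gene of endothelium, was at 42.3 against 29.3 and so above 0 as well, Eng, the endoglin gene, was level at 66.8 against 70.8, and Rasip1 gave 24.3 on the Venus-negative array, just above the floor, and 6.79 on the other. Of 7 lymphatic markers 5 were measured and 3 were at least 2-fold lower, Lyve1 (3.78 against 106, at least 4.73-fold), Mmrn1 and Reln, with 1 of these, Lyve1, past that size on the relative scale. Of the 5, 3 could only be lower, since their Venus-positive signal was below the floor. Prox1, the defining factor of lymphatic endothelium, was at 4.79 against 40.8, and the summed signal of the 5 was 448 against 933, or 49.6 against 263 without Pdpn (399 against 670.4), podoplanin, which other cells express too. Flt1 and Nrp1 are expressed by macrophages as well, and all 12 leukocyte markers were at least 2-fold lower, against 11.6% of genes, with sums of 2584 on the Venus-negative and 329 on the Venus-positive array. Without the brightest of them the sums were 1826 and 281. Of the 12, 7 were measured through the Venus-negative array alone and so could only be lower, and at the raised floor 2 of 10 measured were 2-fold lower. The part of these cell types in the receptor values was not tested.

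**Figure D2:**
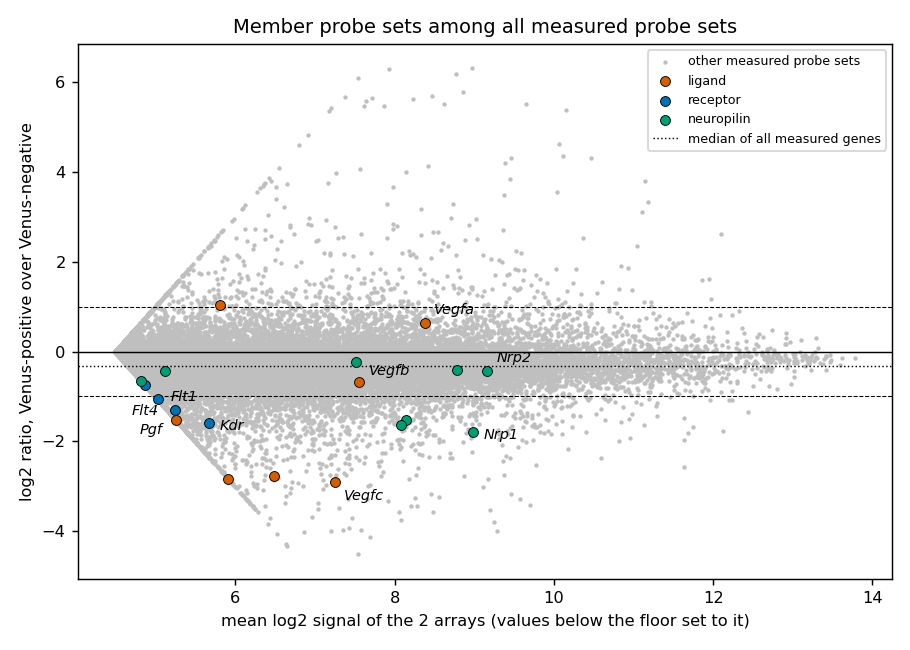
Log2 ratio (Venus-positive to Venus-negative) against mean log2 signal for the 21102 measured probe sets, with the 19 measured member probe sets coloured by role and names at the probe set that stands for each gene. Dashed lines mark 2-fold and the dotted line the median of all genes at -0.33. The named probe sets of Pgf, Flt1 and Flt4 lie at the dim end, at or near the edge set by the floor, and that of Kdr is somewhat brighter. Those of Vegfa, Vegfc, Nrp1 and Nrp2 lie well inside the range of signals. A dimmer probe set each of Vegfc, Flt1 and Nrp2 lies on the floor edge.

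Lower values were more common among dim than among bright probe sets. When measured probe sets were divided into 4 equal bins by mean signal, 10.7% were at least 2-fold lower in the lowest bin, from 22.5 to 44.0, and 15.0% in the second, up to 109. Of the member probe sets 6, of Flt1, Flt4, Nrp1, Nrp2 and Pgf, lie in the lowest bin and 4, of Kdr, Vegfa and Vegfc, in the second. The share was 8.74% in the third bin and 6.43% in the highest.

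Because the 3 receptor genes were lower together, the 250 bases before their annotated starts are shown with the core GGAAG of ETS factor sites, or its reverse complement CTTCC, in capitals. ETS factors are known regulators of endothelial genes. The RefSeq windows, in GRCm38.p6, are chr5:75978456-75978705 on the minus strand for Kdr, chr5:147726012-147726261 on the minus strand for Flt1 and chr11:49609429-49609678 on the plus strand for Flt4.
Kdr: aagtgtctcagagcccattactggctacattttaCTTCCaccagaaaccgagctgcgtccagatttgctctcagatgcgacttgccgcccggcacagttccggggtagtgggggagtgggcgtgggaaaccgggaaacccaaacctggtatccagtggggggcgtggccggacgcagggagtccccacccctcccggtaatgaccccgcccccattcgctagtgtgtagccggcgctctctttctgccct
Flt1: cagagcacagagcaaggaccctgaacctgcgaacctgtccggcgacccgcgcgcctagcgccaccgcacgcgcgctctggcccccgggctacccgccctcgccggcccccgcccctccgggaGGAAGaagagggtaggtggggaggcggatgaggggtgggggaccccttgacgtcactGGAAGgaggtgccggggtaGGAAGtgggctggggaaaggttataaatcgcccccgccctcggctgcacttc
Flt4: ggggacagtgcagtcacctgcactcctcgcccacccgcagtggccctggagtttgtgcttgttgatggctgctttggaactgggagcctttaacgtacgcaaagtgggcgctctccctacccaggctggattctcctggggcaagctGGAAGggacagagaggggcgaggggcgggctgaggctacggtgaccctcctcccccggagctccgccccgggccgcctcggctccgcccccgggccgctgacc

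The Flt1 window holds 3 such cores, 128, 71 and 52 bases before the start, and the windows of Kdr and Flt4 hold 1 each, 216 and 103 bases before it. The core is common, present in 64.1% of all windows and in 6 of the 11 member windows. It does not set the receptors apart: the Nrp1 window holds 3 cores, 239, 90 and 81 bases before the start. Both Vegfa windows hold 1 each, 24 bases before the start in the window printed above and 10 in the other. Flt1 was the 1 member with TATAAA, 31 bases before the start, a motif present in 12.4% of windows.

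The neuropilins differed from each other. Nrp1 (gene ID 18186), the co-receptor that binds Vegfa and Sema3a, had 937 on the Venus-negative and 272 on the Venus-positive array on probe set 1448943_at. Probe sets 1418084_at, with 478 and 167, and 1448944_at, with 477 and 153, showed a like difference. These 3 were 3.45-, 2.86- and 3.11-fold lower, while the dimmer 1457198_at, with 40.5 and 29.9, was 1.36-fold lower. Of measured genes, 3.10% had a lower ratio than Nrp1, and all 3 bright probe sets kept a difference of 2-fold or more relative to the median gene.

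Nrp2 (gene ID 18187), the co-receptor for Vegfc and Sema3f, had 666 on the Venus-negative and 492 on the Venus-positive array on probe set 1456778_at. Its other probe sets gave 508 and 384 and 198 and 168, and the dimmest gave 35.3 and 18.0, the last value below the floor. No Nrp2 probe set reached the 2-fold size, and the largest difference, at least 1.57-fold, was that of the dimmest. On the relative scale Nrp2 as a gene was at -0.10, so that 40.1% of measured genes had a lower ratio. The 3 bright probe sets of Nrp1 lay between -1.79 and -1.51 and those of Nrp2 between -0.44 and -0.24 on the log2 scale, without overlap. With the dimmest probe set of each gene included the ranges overlapped, from -1.79 to -0.44 for Nrp1 and from -0.65 to -0.24 for Nrp2.

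Nrp1 is not an endothelial gene alone, and markers of other cell types that can express it were also lower. The counts that follow stand beside 11.6% of all measured genes at least 2-fold lower as deposited and 6.45% relative to the median gene. At least 2-fold lower were 6 of 10 fibroblast and perichondrium markers, 5 on the relative scale, led by Dcn (156 against 2483, 15.9-fold), Dpt, Osr1 and Postn, with summed signals of 32289 on the Venus-negative and 17440 on the Venus-positive array. Of 9 measured neuronal markers 5 were lower, 4 on the relative scale, led by Nefl (41.7 against 223), Nefm, Gap43 and Stmn2, with sums of 989 and 259. Of 10 pericyte and smooth muscle markers 6 were lower on either scale, including Acta2 (173 against 1999), Abcc9 and Tagln, while Cspg4, a proteoglycan gene that cartilage also expresses, was 12.7-fold higher. Their sums were 4412 and 1940. Of 9 epithelial markers 8 were lower, 7 on the relative scale, led by Cdh1 (27.9 against 238), Krt14, Trp63 and Dsp, with sums of 1741 and 407. Without the brightest gene of each list the sums were, Venus-negative first, 21947 and 11139 for fibroblast and 754 and 213 for neuronal markers. They were 2413 and 1767 for pericyte and 1348 and 337 for epithelial markers. The Venus-positive signal was below the floor for 1 of the fibroblast, 4 of the neuronal, 3 of the pericyte and 2 of the epithelial markers, which could only be lower. Fibroblast-like and perichondrial cells are also known sources of Vegfc and Vegfd. The part of these cell types in the values of Nrp1, Vegfc and Vegfd was not tested.

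The other side of the neuropilins is semaphorin signalling. The 13 secreted semaphorins, plexins and L1cam listed as partners were all measured. At least 2-fold higher were 3, against 2.79% of genes, and 1 was lower, against 11.6%. Sema3c was at 1180 against 445 (2.65-fold), Sema3d at 700.3 against 263 (2.66-fold) and Sema3e at 134 against 52.5 (2.56-fold), the Venus-positive signal first. Sema3c and Sema3d are neuropilin ligands, whereas Sema3e is known to bind Plxnd1 without them. The 3 probe sets of Sema3e ranged from 0.23 to 1.51 on the log2 scale. Plxna2 was lower (51.5 against 124, 2.41-fold) and within 2-fold on the relative scale. Sema3a, the classical Nrp1 ligand, was at 177 against 221, and Sema3f, the Nrp2 ligand, at 141 against 232, with probe sets from -1.49 to -0.72 on the log2 scale. The median of the list was -0.12 on the deposited scale and turned to 0.21 on the relative one.

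Vegfa is a target of hypoxia-inducible factors, and 25 genes of that system were listed. On the deposited scale 3 of these passed the 2-fold size upward and 2 downward, against 2.79% and 11.6% of all measured genes. Relative to the median gene 7 passed it upward and 1 downward, against 5.06% and 6.45% of all genes. P4ha1, a collagen prolyl hydroxylase gene (1106 against 340.0, 3.25-fold), the mitophagy gene Bnip3 (1392 against 501, 2.78-fold) and the mitochondrial gene Higd1a (2340 against 948, 2.47-fold) were the 3 higher genes. Epas1, the hypoxia-inducible factor subunit prominent in endothelium, was 3.58-fold lower (56.2 against 202), and Hif3a was 2.05-fold lower, with another of its 3 probe sets at -0.39 on the log2 scale. Hif1a, the subunit on which growth plate chondrocytes rely, was level on the deposited scale at 2154 against 2202, with 0.30 on the relative one. Adm, adrenomedullin, another hypoxia target, was at 17.4, below the floor, against 38.0. Vegfa itself, not counted among the 25, was at 0.96 on the relative scale. On that scale 17 of the 25 lay above 0 and 8 below, where the median of all measured genes is 0 by construction. The median of the list turned sign with the scale, from -0.18 to 0.15, so no direction is given for it as a whole.

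Vegfa in the growth plate is linked to chondrocyte maturation, and 7 of 10 listed markers of hypertrophic and maturing chondrocytes were measured. At least 2-fold higher were 5, against 2.79% of all measured genes, and 4 of these 5, Panx3, Ihh, Sp7 and Col10a1, were measured through the Venus-positive array alone and so could only be higher. Leading were the channel gene Panx3 (922 against 17.0, at least 41.0-fold, with a second probe set at 0.59 on the log2 scale), the hedgehog ligand gene Ihh (170.0 against 16.3, at least 7.56-fold), the osteogenic factor gene Sp7 (at least 4.25-fold) and the bone matrix gene Ibsp (3.02-fold). Mmp13, a protease gene of late hypertrophic cells, was below the floor on both arrays. Whether Vegfa signal came from such cells was not tested.

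**Figure D3:**
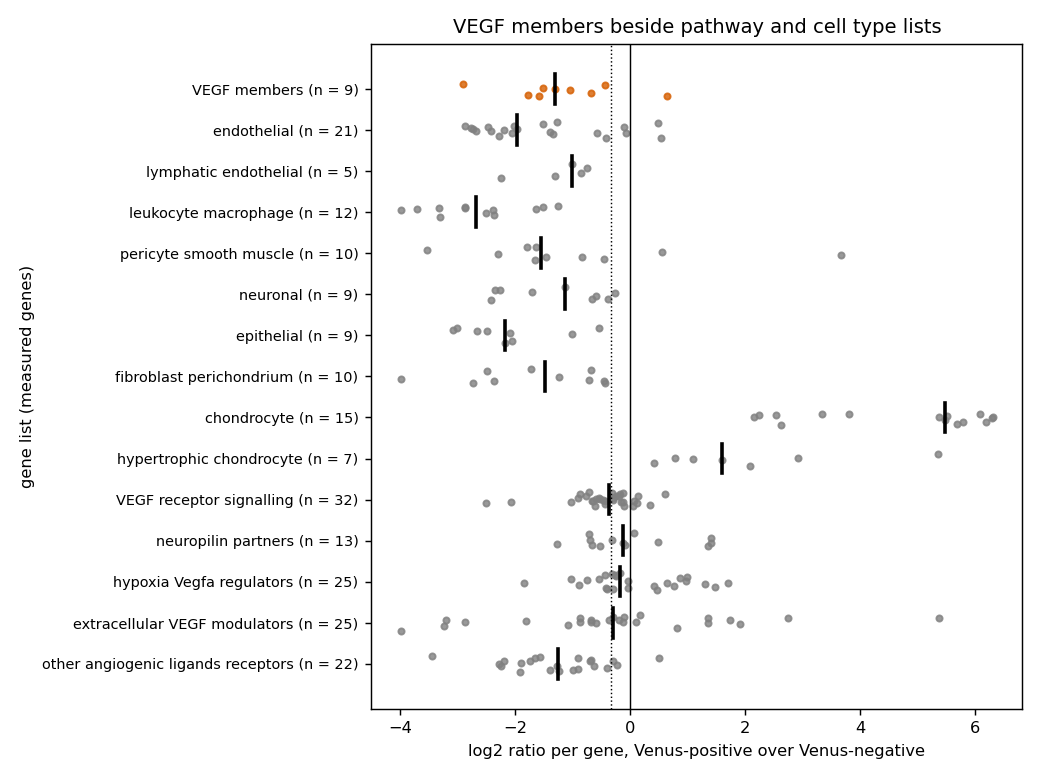
Log2 ratio (Venus-positive to Venus-negative) for each measured gene of the 9 VEGF members (top) and of 14 lists, with a thick line at each median, a solid line at 0 and a dotted line at the median of all genes, -0.33. The members' median of -1.30 lies within the range of the medians of the 7 lists of other cell types and of the other angiogenic genes, from -2.69 to -1.01, and the signalling list (-0.37) sits at the median of all genes.

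Downstream of the receptors, the intracellular signalling genes lay where all genes lay. Of 40 listed genes 32 were measured. At least 2-fold lower were 3, which is near the 11.6% of all genes, none was higher, against 2.79%, and 29 were neither. The median log2 ratio was -0.37, beside -0.33 for all measured genes. The lower genes were Cav1, the gene of the caveolar coat protein that is abundant in endothelium (61.6 against 352, 5.71-fold), Prkcb (24.6 against 104, 4.24-fold, with a second probe set at -0.16 on the log2 scale) and Pik3r1 (229 against 466, 2.04-fold, with probe sets from -1.08 to -0.72), the last within 2-fold on the relative scale. Ptpn6, a phosphatase gene of blood cells, was at 29.3 against 54.8. Most of these genes serve many receptors and are expressed in most cells.

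Extracellular proteins that bind, release or process VEGF ligands differed in both directions. Of 25 measured genes 6 were 2-fold or more higher, against 2.79% of all genes, and 6 lower, against 11.6%. Relative to the median gene 7 were higher, against 5.06%, and 5 lower, against 6.45%, and their median moved from -0.29 to 0.04. Cnmd, chondromodulin, an inhibitor of vessel growth made by cartilage, had 7343 on the Venus-positive array against 176, 41.7-fold higher. Its relative Tnmd, tenomodulin of tendon, was 7.29-fold lower (50.6 against 369). Ccn2, which binds Vegfa, was at 3558 against 948 (3.75-fold higher), the heparan sulfate proteoglycan gene Hspg2, perlecan, at 387 against 116 (3.34-fold, with a second probe set at 0.79 on the log2 scale) and the inhibitor gene Thbs1 at 1416 against 554 (2.56-fold). Besides Dcn, the lowest were Igfbp3 (122 against 1149, 9.40-fold) and Col18a1, whose protein is the source of endostatin (32.6 against 301, 9.24-fold).

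The genes that activate Vegfc split. Adamts3, the protease gene for its precursor, had 649 on the Venus-positive array against 97.3, 6.67-fold higher, although its second probe set had a log2 ratio of 0.41. Ccbe1, whose product assists that protease, stayed under the floor with 5.08 on the Venus-positive array and had 79.1 on the other, a difference of at least 3.51-fold, although its second measured probe set had a log2 ratio of -0.65. The ligand gene Vegfc itself was 7.49-fold lower, as given above, and its receptor gene Flt4 2.46-fold. Adamts3 also cleaves procollagen of cartilage, where it is known to be expressed.

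**Figure D4:**
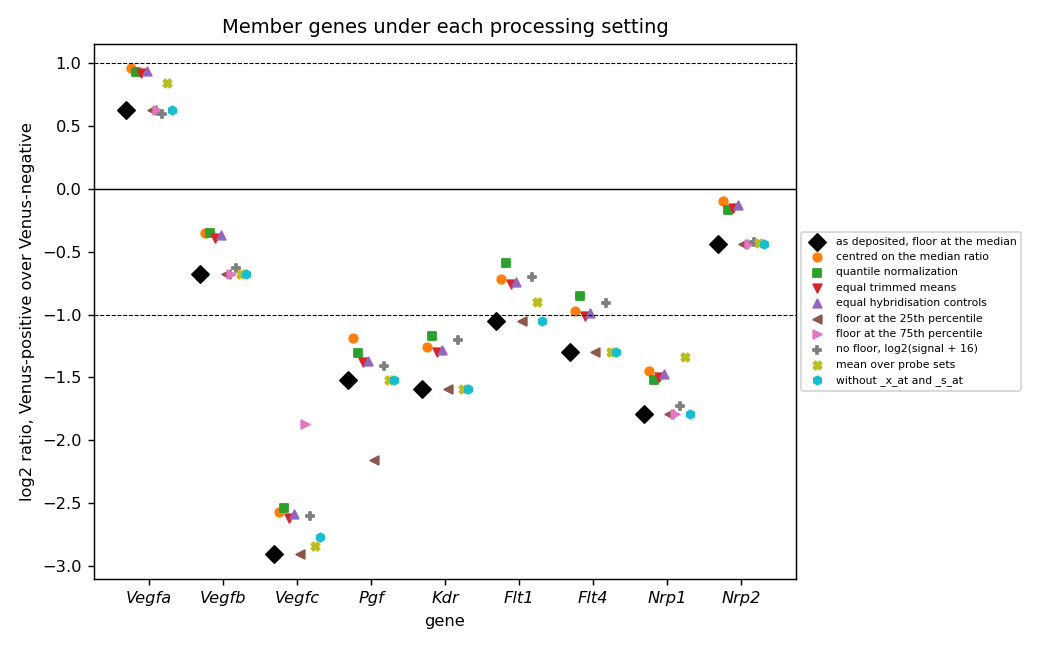
Log2 ratio (Venus-positive to Venus-negative) of the 9 member genes as reported (black diamonds) and under 9 other settings of scale, floor and probe set choice, with dashed lines at 2-fold. Vegfa lies between 0.60 and 0.96 and each of the other genes lies below 0 under every setting that measured it; with the floor at the 75th percentile Pgf, Kdr, Flt1 and Flt4 have no value.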

How the data were processed

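Total RNA of each fraction, 100 ng, was labelled and hybridised to 1 array, per the labels' protocols. The authors deposited linear MAS5 intensities, per the submitters' processing notes, without a stated version, scaling target or detection calls. Precision is limited by the number of arrays, 1 per group. Of 45037 non-control probe sets, 34945 had 1 symbol, 932 several and 9160 none in the platform annotation, and the gene IDs of all 9 members matched RefSeq (GRCm38.p6). Of non-control signals, 52.7% on the Venus-negative and 47.3% on the Venus-positive array reached the floor of 22.5. Each gene was represented by its measured probe set of highest mean log2 signal. Called means at or past 2-fold or 4-fold.

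Members and lists were chosen with earlier results of these data known. Sums without the brightest gene of a list were added after the values were seen. Named genes were the members, Vegfd, Col2a1, Sox9 and the 4 genes per list with the largest absolute log2 ratio. Other named genes (Pecam1, Erg, Clec14a, Eng, Rasip1, Pdpn, Col10a1, Hif1a, Hif3a, Adm, Mmp13, Sema3a, Sema3f, Tnmd, Ccn2, Hspg2, Thbs1, Adamts3, Ccbe1) were added after their values were seen. The 9 alternatives are named with their effects in the closing section. Promoter motifs were searched in the 250 bases before each start, leaving out the 50 after it. On overlapping windows of opposite strands, 1894 of 1894 pairs were reverse complements. Scripts ran in Python 3.11.15 with pandas 2.3.3 and were tested on simulated data. A planned protein comparison was not made, since protein sequences were not used here.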

Additional observations from a re-analysis of the deposited data

How the results depend on the processing

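The 9 alternatives changed the scale, the floor or the choice of probe sets. Vegfa stayed above 0, between 0.60 and 0.96 on the log2 scale, and the other member genes stayed below 0 under every alternative that gave a value. Of 77 member gene values 67 stayed within 0.34 of the reported value, which is the standard deviation between probe sets of a gene, pooled over genes. Centring subtracts the median of -0.33 from every gene, so no value could move past 0.34 there. The floor and probe set choices leave many genes with the same value by construction. The count is therefore no measure of stability, which holds for the list medians below too. Quantile normalization gave -2.54 for Vegfc, -1.17 for Kdr, -0.59 for Flt1 and -0.85 for Flt4. With log2(signal + 16) of the same measured probe sets, in place of setting low signals to the floor, Kdr was at -1.20, Flt1 at -0.70 and Flt4 at -0.91. There 0 member probe sets were at least 2-fold higher in place of 1. The mean over probe sets put Nrp1 at -1.34, and the floor at the 25th percentile put Pgf at -2.16. With the floor at the 75th percentile, a signal of 114, Pgf, Kdr, Flt1 and Flt4 were no longer measured, Vegfc was at -1.87, 2 member genes in place of 6 and 5 member probe sets in place of 10 were at least 2-fold lower, and 0 in place of 1 were at least 2-fold higher. That floor lies above the signals of the receptors on both arrays. Centring, quantile normalization, scaling to the hybridisation controls and log2(signal + 16) left 4 member genes at least 2-fold lower. Equal trimmed means and the mean over probe sets left 5. Without probe sets ending in _x_at or _s_at 6 were left. At that floor the marker lists lost calls too: at least 2-fold lower were 0 endothelial markers in place of 15 (median -0.39 in place of -1.96), 0 lymphatic in place of 3, 2 leukocyte in place of 12, 1 neuronal in place of 5, 3 epithelial in place of 8 and 6 other angiogenic genes in place of 12, and 2 hypertrophic markers in place of 5 were higher. The measured genes were 8, 1, 10, 3, 7, 11 and 4 in these lists. Of all 7428 measured genes, 6.39% were 2-fold lower there and 2.44% higher. Of 126 list medians over all alternatives 23 moved by more than that standard deviation, and of 252 list counts 28 moved by more than 1.5 times. No paired analysis was possible because each fraction has 1 array. The floor, in place of detection calls, limits what the dim receptor probe sets can show.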

Other observations

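Other ligands and receptors of vessel growth were lower in Venus-positive cells as well. Of 22 measured genes in this list, which includes Vegfd, 12 were at least 2-fold lower, against 11.6% of all measured genes, and none was at least 2-fold higher, against 2.79%. Tek also belongs to the endothelial list, Pdgfra to the fibroblast list and Pdgfrb to the pericyte list, so these lower genes were already counted above. Of the 22, 6 had a Venus-positive signal below the floor and could only be lower. Relative to the median gene 10 passed that size, against 6.45%, and the median log2 ratio was -1.25 as deposited and -0.92 relative to the median gene. Aplnr, the apelin receptor gene of angioblasts, was at 25.1 in Venus-positive cells against 272, 10.8-fold lower, and its second probe set had a log2 ratio of -1.08. The angiopoietin system had Tek at 12.4 against 103 (at least 4.60-fold lower), its ligand gene Angpt1 at 56.6 against 212 (3.74-fold lower) and Angpt2 at 23.8 against 44.5. Cxcl12, a chemokine gene of stromal cells, was 4.71-fold lower (232 against 1092) and Met, the receptor gene for hepatocyte growth factor, at least 4.85-fold lower (14.2 against 109).

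The platelet-derived growth factor genes, whose ligands recruit pericytes and fibroblasts, differed in size. Pdgfa was at 188 against 634 (3.37-fold lower), Pdgfrb at 399.6 against 1266 (3.17-fold) and Pdgfra at 715 against 1679 (2.35-fold). Pdgfra was 1.86-fold lower on the relative scale, and its 3 probe sets ranged from -1.23 to -0.41. Pdgfb had 54.3 on the Venus-negative array and 13.8, under the floor, on the other, a difference of at least 2.42-fold, or 1.92-fold relative to the median gene. Pdgfc (832 against 1288, 1.55-fold) and Pdgfd (50.5 against 80.6, 1.60-fold) did not reach 2-fold. Apln, the ligand gene of Aplnr, was the exception among the 22 with a log2 ratio above 0, at 46.5 against 32.8, and Efnb2, an arterial and mesenchymal ephrin gene, was at 1573 against 1831. Dll4, Fgf1, Fgf2, Angpt4 and Tie1 were below the floor on both arrays. Angpt1, Angpt2, the Pdgf and Pdgfr genes, Apln and Efnb2 were named after their values were seen.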
